A study of Mus musculus with 12 samples.

Results

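The interval from ZT2 to ZT6, early in the light phase, was examined in mouse liver mRNA, where ZT counts hours from lights on. It was covered by 4 of the 12 RNA-Seq libraries of the series, 2 collected at ZT2 and 2 at ZT6. Of the 20069 entries in the expression table, the 10198 that exceeded 8 reads per base pair (rpbp) in at least 1 of the 12 libraries were tested. A gene was counted as a clear rise when the lower of its ZT6 values was at least 1.5 times the higher of its ZT2 values, and as a clear fall in the opposite case. By this rule 674 genes were clear rises (6.61% of genes tested) and 491 were clear falls (4.81%), 1165 in all.

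All 12 livers came from wild-type male C57BL/6 mice, 3 to 6 months old, kept for at least 2 weeks in cycles of 12 hr of light and 12 hr of darkness, with no treatment that the labels name. Besides ZT2 and ZT6, the fit used livers of the 4 later times, every 4 hr up to ZT22, and 2 independent series gave n = 2 at each time. Poly(A) RNA of each liver was sequenced, and the value of a gene is the mean read depth over its exons, in rpbp on a scale of 4e+07 uniquely mapped sequences. Because rpbp is per base, levels of different genes can be set side by side.

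The liver clock is a feedback loop in which the activators CLOCK, BMAL1 (the product of Arntl) and NPAS2 bind E-box DNA and drive the Per, Cry and Nr1d genes, whose products in turn repress the activators or their genes. The same activators drive Dbp, Tef and Hlf, factors of the PAR bZIP family that bind D-box DNA, while NFIL3 represses through the same sites. Feeding, fasting and pituitary hormones set further daily programs in hepatocytes, which make most plasma proteins, fatty acids and bile acids. The level of an mRNA can fall no faster than the molecule decays, so a steep fall within a few hours bounds its half-life from above.

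The ZT2 libraries correlated less with those of ZT6 than libraries of the other times did with each other, and came closest to ZT22 replicate 2. The correlation of log2(rpbp + 1) across genes was 0.985 between both ZT2 libraries and 0.987 between both ZT6 libraries, and 0.926 to 0.931 between ZT2 and ZT6, against 0.944 to 0.981 between libraries of different times other than ZT2. The ZT2 libraries correlated at 0.9204 to 0.938 with ZT10, 0.944 to 0.947 with ZT14, 0.940 to 0.958 with ZT18, 0.950 to 0.952 with ZT22 replicate 1 and 0.970 to 0.971 with ZT22 replicate 2. Both ZT2 values lay outside the range of the 10 other libraries in 2033 genes (19.9%), and the corresponding count for the other times was 376 to 935. The summed hepatocyte markers (8 found of 9) were 85950 to 90708 rpbp at ZT2, 140799 to 142196 at ZT6 and 128209 to 161764 elsewhere, mostly through Alb. Apoa1 of this list went the other way, at 17423 and 17762 rpbp at ZT2 and 11106 and 10884 at ZT6. The summed Kupffer cell markers (11 of 11) were 1015 to 1049 rpbp at ZT2, 551 to 795 at ZT6 and 540 to 810 elsewhere, and the cholangiocyte sum (7 of 7) was 149 to 246, 78.9 to 82.5 and 79.1 to 161 rpbp. The pancreas sum (2 of 12, mostly Ela1) was 67.2 to 95.4 rpbp at ZT2, 31.8 to 34.2 at ZT6 and 24.8 to 93.2 elsewhere, and the neutrophil sum (6 of 8) was 17.4 to 23.0, 6.12 to 10.6 and 3.48 to 23.5 rpbp. Endothelial sums (11 of 11) were 361 to 381 and 381 to 388 rpbp at ZT2 and ZT6, and all 4 Y-linked genes were expressed in all 12 libraries, with a sum of 139 to 171 rpbp. Among the 12 RNA-Seq libraries, the share of uniquely mapped sequences that the study lists was lowest in both ZT2 and highest in both ZT6 libraries. The part of these differences in the results was not tested. Different animals were sampled at each time, so that time of day and the animals of a time point cannot be told apart, nor can fewer cells of a type and less RNA per cell.

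More genes were called over this interval than over any other 4 hr step. Pairs that did not overlap, at any distance, made up 31.1% of genes in the higher and 34.8% in the lower direction. limma on log2(rpbp + 1), with all 12 libraries in the fit and Benjamini-Hochberg adjustment over 10198 genes, called 1136 genes higher at ZT6 (11.1%) and 878 lower (8.61%), 2014 in all (19.7%). The same fit called 33 genes (0.324%) from ZT6 to ZT10, 91 (0.892%) from ZT10 to ZT14, 51 (0.5%) from ZT14 to ZT18, 13 (0.127%) from ZT18 to ZT22 and 254 (2.49%) from ZT22 to ZT2. Of the clear rises and falls, 599 and 412 were also called by limma. At a gap of 2 there were 293 rises (2.87%) and 189 falls (1.85%), at a gap of 3 there were 138 (1.35%) and 100 (0.981%), and at a gap of 4 there were 92 (0.902%) and 66 (0.647%). The genes just inside the threshold of 1.5 were Gpd2, Rev1 and Ly6d among rises and Pla2g7 among falls, each at a gap of 1.5, and those just outside were Nxt2 (1.499) and Pigf (1.498). The median log2 change of all genes tested was -0.02.

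With 1 of the 4 libraries left out, the calls fell to between 483 (without ZT6 replicate 2) and 563 (without ZT2 replicate 2) higher and between 303 (without ZT6 replicate 1) and 400 (without ZT6 replicate 2) lower. Without ZT2 replicate 1 they were 561 and 307. In these fits the lone library of a time is assumed to vary like the other groups. Of the calls, 371 higher and 219 lower were made in all 4 such fits, and these are called calls that held below. Replicates are separate samples by their labels, and the median SD of a pair was 7.02% of its mean at ZT2 and 6.33% at ZT6.

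**Figure D1:**
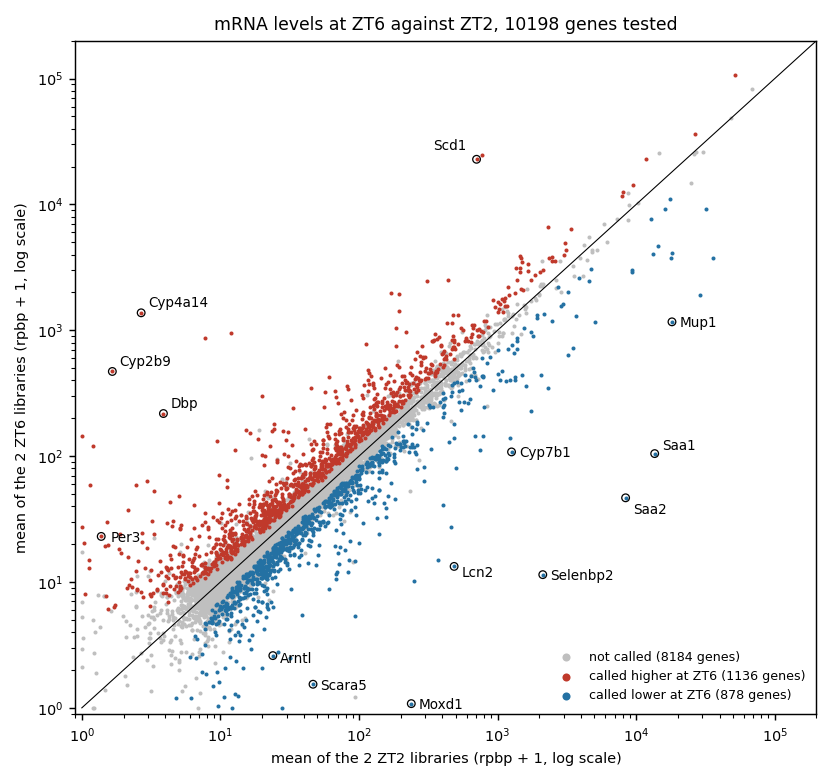
Mean mRNA level at ZT6 (vertical) against ZT2 (horizontal), each the mean of 2 libraries in rpbp + 1 on log scales, for 10198 genes. Red points are the 1136 genes called higher at ZT6, blue points the 878 called lower and grey points the others. Cyp4a14, Cyp2b9 and Dbp lie far above the line of equal levels, and Moxd1, Saa1, Saa2 and Selenbp2 far below it.

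Core clock genes moved in opposite directions within the 4 hr. Arntl (chr7:120350979-120457636, mm9, + strand), which encodes the activator BMAL1, read 23.6 and 22.2 rpbp at ZT2 and 1.12 and 2.08 rpbp at ZT6. The 2 pairs did not overlap, and the level fell 14.3-fold (log2 change -3.22 ± 0.26 SE, n = 2 per time, limma adjusted p = 0.000124). Arntl was also high in all 4 libraries of ZT18 and ZT22, at 23.5 to 29.4 rpbp, so that the low point came directly after a plateau of 3 time points. The entry bmal1b, a second record of the same gene, had nearly the same values and is no separate observation.

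The partners of BMAL1 fell as well. Clock read 35.1 and 39.8 rpbp at ZT2 and 17.8 and 16.2 at ZT6, a 2.20-fold fall (adjusted p = 0.000162). Npas2, the paralog of Clock, read 4.36 and 3.28 rpbp at ZT2 and 0.36 and 0.04 at ZT6 (adjusted p = 0.0223), and was at or below 0.12 rpbp at ZT10 and ZT14. The Npas2 call was lost without any 1 of the 4 libraries (adjusted p 0.0553 to 0.127) and with a pseudocount of 0.1 rpbp (0.0884), although its pairs did not overlap. Rora, a nuclear receptor that activates Arntl, read 16.2 and 13.2 at ZT2 and 20.0 and 20.2 at ZT6 (adjusted p = 0.0317; 0.0656 with only the ZT2 and ZT6 libraries). The Rora call was also lost without ZT2 replicate 2 (adjusted p 0.193), ZT6 replicate 1 (0.126) or ZT6 replicate 2 (0.128).

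Of the 9 clock repressors tested, 8 rose and none fell by the limma calls, against 11.1% and 8.61% of all genes, and 7 of the 8 calls held. Per3 was among the steepest: it read 0.28 and 0.48 rpbp at ZT2 and 20.6 and 23.5 at ZT6 (log2 change 4.06 ± 0.19 SE, adjusted p = 5.31e-06). Per2 went from 3.24 and 3.88 to 17.7 and 19.2 rpbp, and Per1 from 0.68 and 0.72 to 5.92 and 4.68 rpbp. The Per mRNAs thus shared the direction but not the level, and their highest means came at different times, ZT6 for Per3, ZT10 for Per1 and ZT14 for Per2.

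Nr1d1 and Nr1d2 encode the REV-ERB nuclear receptors, which repress Arntl. Nr1d1 rose from 46.0 and 42.5 to 142 and 108 rpbp (2.83-fold, adjusted p = 0.00254), and Nr1d2 from 26.04 and 33.3 to 95.6 and 103 rpbp (3.35-fold, adjusted p = 0.000364). At ZT2 both Nr1d1 values were already above its ZT22 values of 10.5 and 14.5 rpbp, whereas Per3 at ZT2 was still below its ZT22 values of 1.08 and 1.28 rpbp. Cry2 rose 2.21-fold to 36.8 and 34.9 rpbp, and Bhlhb2, the older symbol of Bhlhe40, rose 2.91-fold (adjusted p = 0.00979; 0.0778 without ZT2 replicate 1 and 0.0771 without ZT6 replicate 2). Gm129, a repressor of the activator complex now named Ciart, was listed at 0.24 and 0 rpbp at ZT2 and 13.5 and 14.4 at ZT6. Cry1 was the exception, at 7.88 and 9.2 rpbp at ZT2 and 6.24 and 6.04 at ZT6 (adjusted p = 0.122), and its highest values came at ZT18, at 49.4 and 51.0 rpbp.

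All 4 genes of the PAR bZIP and Nfil3 list changed, 3 up and 1 down, against 11.1% and 8.61% of all genes, and all 4 calls held. Dbp (chr7:52960458-52965525, mm9, + strand) read 1.96 and 3.80 rpbp at ZT2 and 193 and 241 at ZT6, a 75.4-fold rise (log2 change 5.85 ± 0.28 SE, adjusted p = 5.31e-06). Tef rose 7.64-fold, from 16.7 and 18.7 to 128 and 142 rpbp, and Hlf 2.06-fold, from 25.0 and 23.2 to 49.0 and 50.3. Nfil3, the repressor that shares their sites, fell 2.69-fold, from 52.7 and 48.8 to 20.6 and 17.1 rpbp (adjusted p = 0.000403). Among the activators of the list the rise was smallest for Hlf and largest for Dbp.

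Known output genes of the clock were also called often. Of 14 tested, 8 rose and 2 fell, against 11.1% and 8.61% of all genes, and 7 and 2 of these calls held. Inmt, which methylates indolamines, rose 8.05-fold, from 322 and 293 to 2548 and 2394 rpbp (adjusted p = 2.27e-06). Wee1, a cell-cycle kinase, rose from 1.8 and 1.64 to 21.6 and 25.7 rpbp, Usp2, a deubiquitinase, from 1.08 and 0.76 to 13.8 and 18.04, and Por, the electron donor of cytochromes P450, from 104 and 106 to 251 and 326. Avpr1a, a vasopressin receptor, fell 6.23-fold, from 72.7 and 64.0 to 12.6 and 9.36 rpbp (adjusted p = 0.000445).

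**Figure D2:**
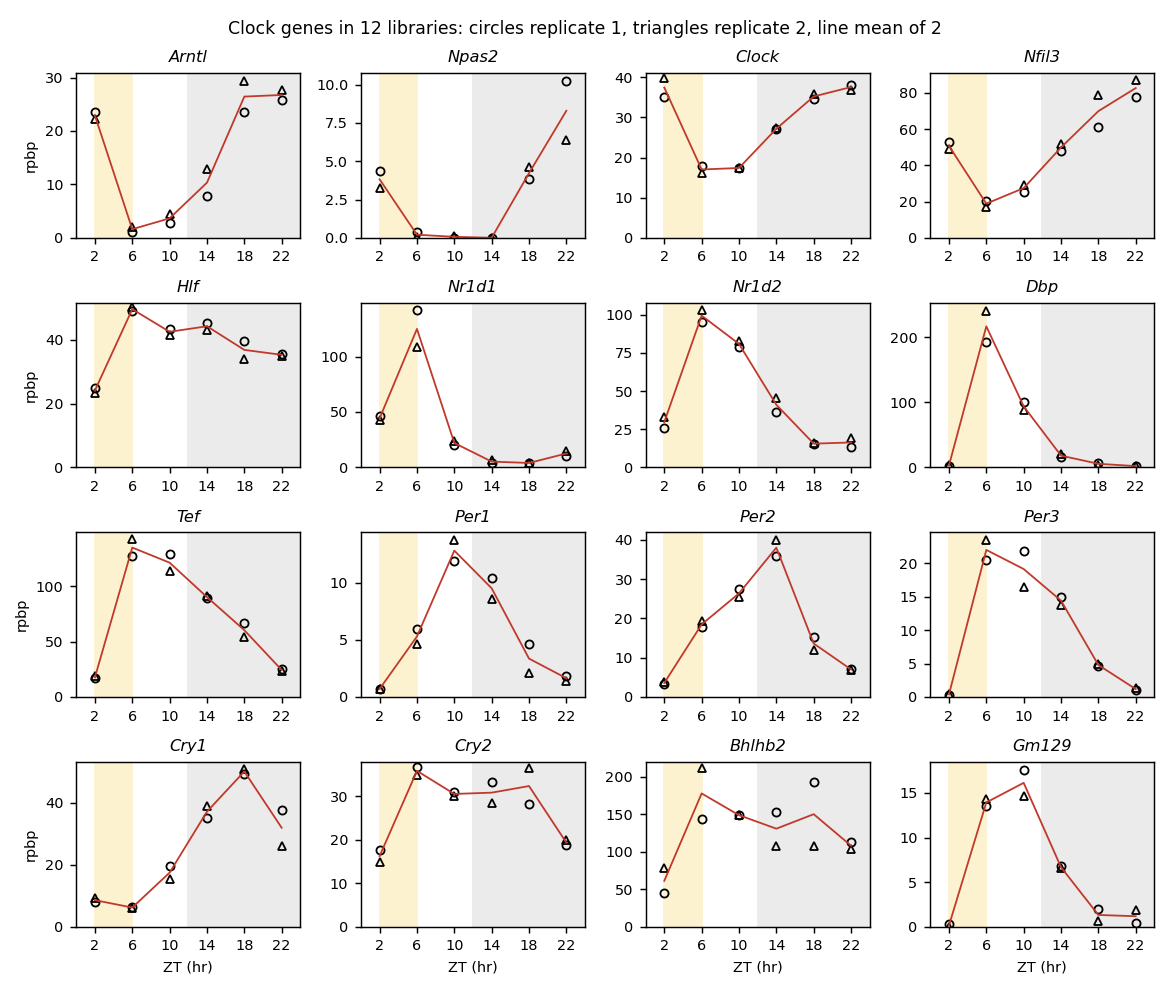
Levels of 16 clock genes in rpbp (vertical, linear from 0) against ZT in hours (horizontal) in all 12 libraries. Circles are replicate 1, triangles replicate 2 and the line joins the means of 2; the yellow band marks ZT2 to ZT6 and the grey band darkness. Arntl, Npas2, Clock and Nfil3 drop across the yellow band, Dbp, Tef, Nr1d1, Nr1d2 and Per3 climb steeply, and Cry1 stays at 6.04 to 9.2 rpbp.

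The promoters of 3 of these genes and of a pair of steeply fallen genes are shown, because 3 hold elements bound by clock factors and the pair shares a C/EBP element, a site of liver-enriched factors that act on acute phase genes. Each runs from 250 bases before to 50 after the start of the gene in RefSeq (GRCm38.p6 table), and each was placed in mm9 by a single exact match. Capitals mark the ROR element of Arntl, the D-boxes TTATGTAA of Per3, the E-box CACGTG of Tef and the C/EBP element TTGCNNAA of Saa1 and Saa2, found on either strand and without overlap.
Arntl, chr7:120350775-120351074, + strand: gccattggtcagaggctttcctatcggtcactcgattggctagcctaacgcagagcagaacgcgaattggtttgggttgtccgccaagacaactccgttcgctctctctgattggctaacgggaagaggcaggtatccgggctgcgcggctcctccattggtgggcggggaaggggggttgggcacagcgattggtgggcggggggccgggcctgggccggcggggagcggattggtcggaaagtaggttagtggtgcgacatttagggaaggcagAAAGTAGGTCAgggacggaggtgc
Per3, chr4:150418725-150419024, - strand: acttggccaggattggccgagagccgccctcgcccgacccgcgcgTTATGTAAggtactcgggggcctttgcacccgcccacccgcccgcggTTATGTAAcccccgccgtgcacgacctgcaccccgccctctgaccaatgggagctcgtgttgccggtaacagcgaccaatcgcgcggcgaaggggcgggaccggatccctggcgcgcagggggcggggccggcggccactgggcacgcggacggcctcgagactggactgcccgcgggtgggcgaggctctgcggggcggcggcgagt
Tef, chr15:81632853-81633152, + strand: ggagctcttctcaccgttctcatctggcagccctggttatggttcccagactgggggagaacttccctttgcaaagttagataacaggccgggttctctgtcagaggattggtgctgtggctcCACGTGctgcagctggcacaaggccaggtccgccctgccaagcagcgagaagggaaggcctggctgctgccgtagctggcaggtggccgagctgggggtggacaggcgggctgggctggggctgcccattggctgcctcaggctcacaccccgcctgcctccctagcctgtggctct
Saa1, chr7:53998301-53998600, - strand: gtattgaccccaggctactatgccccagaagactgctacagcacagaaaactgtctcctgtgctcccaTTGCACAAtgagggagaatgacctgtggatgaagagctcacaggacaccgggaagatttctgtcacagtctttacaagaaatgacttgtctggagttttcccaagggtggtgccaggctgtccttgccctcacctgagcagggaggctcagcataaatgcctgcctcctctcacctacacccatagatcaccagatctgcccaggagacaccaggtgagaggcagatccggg
Saa2, chr7:54006953-54007252, + strand: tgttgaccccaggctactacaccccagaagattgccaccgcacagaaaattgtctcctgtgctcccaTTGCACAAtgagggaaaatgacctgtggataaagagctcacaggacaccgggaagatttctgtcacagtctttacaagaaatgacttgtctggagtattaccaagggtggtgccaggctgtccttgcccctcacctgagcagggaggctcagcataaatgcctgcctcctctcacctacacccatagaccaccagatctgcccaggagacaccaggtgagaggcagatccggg

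The D-boxes of Per3 begin 205 and 158 bases before the start, the E-box of Tef 127 bases before it, and the ROR element of Arntl 26 bases after it. The promoters of Saa1 and Saa2 were identical in 287 of 301 aligned positions (95.3%), and the C/EBP element lay 182 and 183 bases before their starts. By symbol, 5657 of the tested genes had a promoter in the table, among them 373 clear rises and 266 clear falls. The E-box was present in 12.4% of all these genes, in 51 of the rises (13.7%) and in 11 of the falls (4.14%). The D-box was present in 0.760% of all, in 6 rises and in 4 falls, the ROR element in 0.159% of all, 1 rise and 4 falls, and TGACGTCA, the cAMP response element, in 3.66% of all, 9 rises and 8 falls. TTGCNNAA was present in 10.5% of all, in 61 rises (16.4%) and in 49 falls (18.4%). Over all 32851 promoters of the table the shares were 7.15% for the E-box, 0.938% for the D-box, 0.384% for the ROR element, 1.79% for TGACGTCA and 10.8% for TTGCNNAA. These counts describe letters in a window of 300 bases and were not tested. Among the other clock genes, the E-box was also present in Per1, which rose, and in Cry1, which was not called. Hlf held TGACGTCA, Per1 and Nr1d1 held TTGCNNAA, and Dbp, Nr1d2, Cry2, Clock, Npas2, Rora and Nfil3 held none of the 5 elements in this window.

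Among called genes with no value of 0, the 4 largest rises were in cytochrome P450 genes. Cyp4a14 (chr4:115158805-115168747, mm9, - strand), a fatty acid hydroxylase and a target of the receptor PPARα, read 1.64 and 1.72 rpbp at ZT2 and 1430 and 1322 at ZT6, an 819-fold difference of means (log2 change 9.004 ± 0.89 SE, adjusted p = 0.000331). Cyp4a10 rose from 9.08 and 12.8 to 996 and 902 rpbp, and Cyp4a31 from 4.40 and 9.08 to 897 and 834. The 3 genes are close paralogs and reads that fit more than 1 place were left out, so their separate levels are uncertain. None of the 3 was as low in any other library as at ZT2, although Cyp4a14 came down to 5.60 rpbp in 1 ZT14 library.

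Of 22 PPARα targets tested, 17 rose and none fell, against 11.1% and 8.61% of all genes, with a median log2 change of 1.13 against -0.02, and 9 of the 17 calls held. Ppara itself rose 2.92-fold, from 74.8 and 72.6 to 201 and 229 rpbp (adjusted p = 0.00014). Acot1 and Acot2, thioesterases of long-chain acyl-CoA, rose 11.6-fold and 20.1-fold, and the peroxisomal enzyme Ehhadh rose 4.12-fold. Pdk4, Fgf21, Plin2, Vnn1 and Creb3l3 did not pass. Vnn1 read 15.7 and 20.2 rpbp at ZT2 and 184 and 134 at ZT6 without reaching the threshold (adjusted p = 0.056).

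Of 20 genes of fatty acid synthesis, 17 rose and none fell, against the same 11.1% and 8.61% of all genes, with a median log2 change of 1.68, and 8 calls held. Scd1 (chr19:44468941-44482199, mm9, - strand), the desaturase that makes oleate, read 647 and 762 rpbp at ZT2 and 27154 and 18548 at ZT6 (log2 change 4.996 ± 0.46 SE, adjusted p = 0.000236). The entry BC114417 carried nearly the same values as Scd1. Thrsp, a lipogenic nuclear protein, rose 11.8-fold, Fasn, fatty acid synthase, 7.84-fold from 43.1 and 45.6 to 414 and 281 rpbp, and Srebf1, their transcription factor, 3.17-fold.

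Of 23 genes of cholesterol synthesis and uptake, 12 rose and none fell, against 11.1% and 8.61% of all genes, with a median log2 change of 0.69, and 2 of the 12 calls held. Among bile acid genes 4 of 15 rose and 3 fell, of which 2 and 1 held, with a median log2 change of 0.24. Cyp7a1, the rate-limiting enzyme of bile acid synthesis, read 35.0 and 22.1 rpbp at ZT2 and 62.6 and 63.9 at ZT6 (adjusted p = 0.0628), whereas Cyp7b1, the oxysterol hydroxylase of the alternative route, fell 11.8-fold, from 1400 and 1122 to 124 and 89.6 rpbp (adjusted p = 0.0027).

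The other genes with large rises follow. Cyp2b9, a cytochrome P450 higher in female than male mouse liver, read 0.48 and 0.84 rpbp at ZT2, 410 and 530 at ZT6, and 67.1 to 627 in the 8 libraries of other times. Mfsd2, now Mfsd2a, a carrier of lysophospholipids, rose 39.9-fold, and Abcd2, a peroxisomal carrier of very long acyl-CoA, 31.2-fold, from 1.32 and 1.00 to 32.0 and 40.3 rpbp. Cyp2c38 rose 31.8-fold, and the cDNA entries AK135671, AK149509 and AK132490, with no symbol, rose from at most 2.80 rpbp to at least 20.9 rpbp; of these the AK149509 call was lost without ZT2 replicate 1 (adjusted p = 0.055) or ZT6 replicate 2 (0.069). Acot3 and Cyp2b13 were listed at 0 in both ZT2 libraries and at 94.3 and 192 and at 19.6 and 33.6 rpbp at ZT6, so no fold is given. Rgs16, a regulator of G-protein signalling, was listed at 0.4 and 0 rpbp at ZT2 and 105 and 132 at ZT6 (adjusted p = 0.000309).

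**Figure D3:**
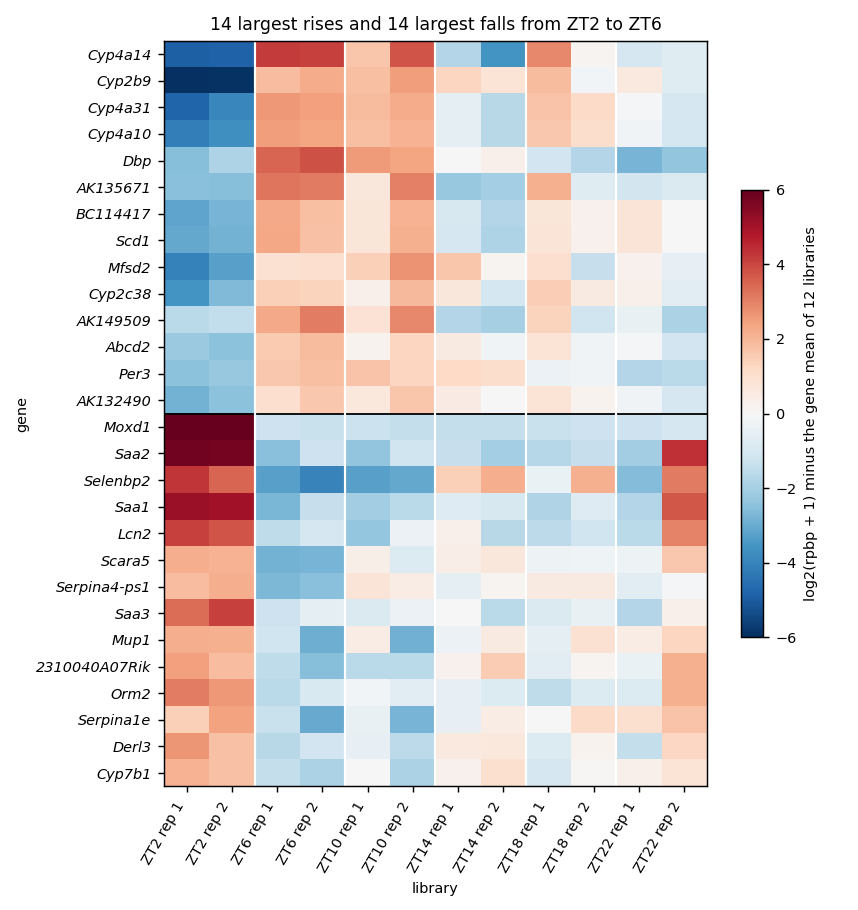
The 14 largest rises (above the black line) and 14 largest falls (below it) in the 12 libraries, as log2(rpbp + 1) minus the mean of the gene over all libraries; red is above and blue below that mean, and colours end at 6 log2 units. Both ZT2 columns differ from most other columns, and ZT22 replicate 2 shares their red for Saa1, Saa2, Selenbp2, Lcn2 and Orm2.

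Several of the largest falls were in mRNAs of secreted proteins. Of 21 acute phase genes, which hepatocytes raise in inflammation, 17 fell and none rose, against 8.61% and 11.1% of all genes, with a median log2 change of -1.79 against -0.02, and 11 calls held. Saa1 (chr7:53995871-53998350, mm9, - strand), serum amyloid A, read 14312 and 12918 rpbp at ZT2 and 57.8 and 150 at ZT6, a 131-fold fall (log2 change -7.17 ± 1.32 SE, adjusted p = 0.0061; 0.0508 without ZT6 replicate 1). Saa2 fell 184-fold, from 8523 and 8270 to 26.6 and 64.7 rpbp (adjusted p = 0.00871; 0.0525 without ZT2 replicate 1 and 0.0643 without ZT6 replicate 1).

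Outside ZT2, Saa1 was between 57.8 and 233 rpbp in 9 libraries and at 5249 rpbp in ZT22 replicate 2, while ZT22 replicate 1 had 115 rpbp. Thus both ZT2 livers and 1 of 2 ZT22 livers were high. Saa1 and Saa2 are near-identical neighbours, so their split is uncertain under unique mapping. Lcn2, a siderophore-binding lipocalin, followed the same libraries, at 540 and 431 rpbp at ZT2, 9.96 and 14.6 at ZT6 and 244 in ZT22 replicate 2, but its call (adjusted p = 0.0177) was lost without any 1 of the 4 libraries (0.0709 to 0.0983). Saa3 fell 26.9-fold and Orm2 17.4-fold in calls that held.

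The abundant plasma proteins of this list fell by smaller factors. Hp, haptoglobin, went from 19262 and 17336 to 3574 and 4646 rpbp (4.45-fold, adjusted p = 0.00372), and Hpx, hemopexin, fell 4.74-fold. The fibrinogen chains Fga, Fgb and Fgg fell together by 3.30-fold, 3.10-fold and 3.21-fold, Fga from 13317 and 13269 to 4106 and 3960 rpbp. Il1r1 and Stat3, which carry the inflammatory signal into the cell, fell 3.82-fold and 1.86-fold. The Stat3 call was lost without ZT2 replicate 1 (adjusted p 0.0634), ZT6 replicate 1 (0.0553) or ZT6 replicate 2 (0.0535), with its direction kept. Apcs, Hamp, Orm3 and Cebpd did not pass. Alb moved the other way, from 50445 and 53126 to 105768 and 109301 rpbp (2.08-fold, adjusted p = 0.00106; 0.37 when no minimum level was applied).

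Of 22 genes of the unfolded protein response of the endoplasmic reticulum, 11 fell, 2 rose and 9 were not called, against 8.61% lower and 11.1% higher among all genes, with a median log2 change of -0.66. The calls of the transcription factors Xbp1 and Atf4 held and those of the other 11 did not. Xbp1, a transcription factor of that response, fell 2.24-fold, from 655 and 612 to 256 and 310 rpbp (adjusted p = 0.00271). Hspa5, the chaperone BiP, read 1158 and 1457 rpbp at ZT2 and 649 and 680 at ZT6 (adjusted p = 0.0276; up to 0.154 with 1 library left out), and Herpud1 read 216 and 215 at ZT2 and 404 and 399 at ZT6 (adjusted p = 0.00874; at most 0.0558 with 1 left out). Derl3, which is not on this list and exports misfolded proteins from the endoplasmic reticulum, fell 20.7-fold, from 40.2 and 21.1 to 1.04 and 1.92 rpbp (adjusted p = 0.00961; 0.0757 without ZT2 replicate 1 and 0.0675 without ZT6 replicate 1).

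Several of the steepest falls and rises were in genes known to differ between male and female mouse liver, although all animals are labelled male and Y-linked levels were alike. These lists were drawn up after values had been seen, so their counts only describe. Of 21 genes known as higher in males, 15 were lower at ZT6 and none higher, against 8.61% and 11.1% of all genes, with a median log2 change of -2.40, and 7 of the 15 calls held. Of 18 tested genes known as higher in females, 16 were higher at ZT6 and none lower, with a median of 3.57, of which 12 held, and all 18 had pairs at least 1.5-fold apart. The female list had 29 genes in the expression table, and those not tested exceeded the minimum level in no library. Several tested ones, such as Cyp2b9 and Abcd2, were below that minimum in both ZT2 libraries and passed it only at other times. The minimum thus favours rises in this list, and its share and median partly reflect it. The female list shares Cyp4a10, Cyp4a14, Cd36 and Vnn1 with the PPARα targets.

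Moxd1 (chr10:23943323-24022596, mm9, + strand), a copper monooxygenase of the male list, read 246 and 229 rpbp at ZT2, 0.12 and 0.04 at ZT6, and at most 0.32 in the 8 libraries of other times (log2 change -7.79 ± 0.46 SE, adjusted p = 1.78e-05). It was thus at a high level in the ZT2 pair alone among the 12 libraries. Selenbp2, a selenium-binding protein, read 2708 and 1531 rpbp at ZT2 and 13.3 and 7.56 at ZT6 (adjusted p = 0.00744; 0.0536 without ZT2 replicate 1 and 0.0516 without ZT6 replicate 2), and between 13.2 and 1179 elsewhere. Egfr, the growth factor receptor, fell 10.04-fold, from 404 and 400 to 43.0 and 37.1 rpbp (adjusted p = 0.0047).

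Mup1, a major urinary protein, read 18427 and 17862 rpbp at ZT2 and 1798 and 535 at ZT6 (adjusted p = 0.0151; 0.107 without ZT6 replicate 2, 0.0774 and 0.0713 without either ZT2 library). Mup1 and Serpina1e, which fell 15.3-fold (adjusted p = 0.0079; 0.0609 without ZT2 replicate 2 and 0.0647 without ZT6 replicate 2), belong to families of near-identical genes and their values are uncertain. Elovl3, an elongase of very long fatty acids, fell 8.81-fold, from 1279 and 1165 to 165 and 112 rpbp, and was also high at ZT22, at 1440 and 1388 (adjusted p = 0.00702; 0.0538 without ZT6 replicate 2). Scara5, a receptor for ferritin, fell from 47.2 and 44.0 to 0.52 and 0.56 rpbp (84.4-fold, adjusted p = 0.000466), and the pseudogene entry Serpina4-ps1 fell 26.5-fold. The entry 2310040A07Rik fell 21.3-fold.

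Of 25 immediate early and AU-rich mRNAs, which are known for fast decay, 5 rose and 4 fell, against 11.1% and 8.61% of all genes, with a median log2 change of 0.01, and only the rises of Gadd45a and Klf10 were calls that held. Gadd45a, a stress response gene, went from 6.08 and 4.72 to 20.4 and 31.5 rpbp, and Klf10, a zinc finger repressor, from 7.04 and 9.76 to 29.8 and 30.1. Dusp1, a phosphatase, differed more within pairs than between them, at 26.4 and 98.0 rpbp at ZT2 and 25.2 and 77.3 at ZT6. Socs2, which dampens growth hormone signalling, read 28.6 and 46.6 at ZT2 and 2.16 and 6.84 at ZT6 (adjusted p = 0.0073; 0.0573 without ZT2 replicate 2 and 0.0604 without ZT6 replicate 1).

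Against the 11.1% higher and 8.61% lower among all genes, ribosome biogenesis had 5 falls and no rise among 21 (median log2 change -0.26), of which 1 call held. Heat shock chaperones had 3 falls among 19 (median -0.01), of which the 1.78-fold fall of Hsp90aa1 held, gluconeogenesis 4 rises and 1 fall among 15 (median 0.30), of which 1 rise held, and glucocorticoid receptor targets 3 rises and 3 falls among 16 (median -0.32), of which 2 rises held. Interferon-stimulated genes had 3 falls among 16 (median -0.45), and none of the 3 calls held. Cirbp and Rbm3, the cold-inducible RNA-binding proteins, were not called by limma and neither had an unadjusted p below 0.05. Of 8 hepatocyte markers, 2 (Alb and Ttr) were called higher, 1 lower and 5 not called, with a median log2 change of 0.21. The lower one was Apoa1 (1.60-fold, limma adjusted p = 0.0395). Among markers of other cells, 4 of 10 Kupffer genes were lower at ZT6, of which none held, 2 of 3 cholangiocyte genes (Sox9 and Spp1) were lower, of which neither held, and none of 11 endothelial, 7 stellate, 3 blood or 2 neutrophil genes was called, with 3, 2, 0 and 1 at an unadjusted limma p below 0.05. The 1 tested pancreas gene, Ela1, an elastase, read 89.2 and 63.8 rpbp at ZT2 and 31.3 and 28.0 at ZT6 (limma adjusted p = 0.0507) and was not called, with an unadjusted p below 0.05. No lymphocyte marker exceeded the minimum.

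**Figure D4:**
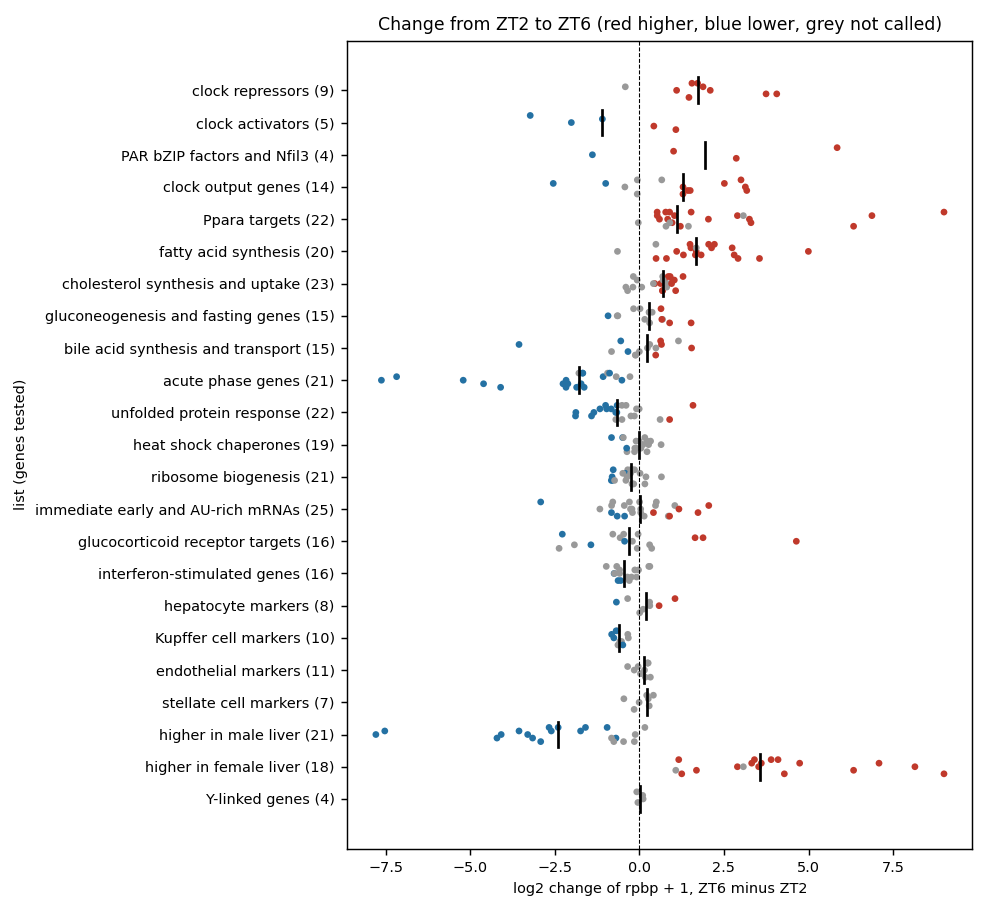
Log2 change of rpbp + 1 from ZT2 to ZT6 (horizontal) for each tested gene of 23 lists (vertical, number tested in brackets). Red points were called higher, blue lower and grey not called by limma; black bars are list medians and the dashed line the median of all genes, -0.02. PPARα targets and fatty acid synthesis lie right of the line, acute phase genes left of it, and the lists of genes higher in female and in male liver lie far to the right and left.

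Levels at ZT10 and ZT22, which do not enter the means of this comparison, were set beside it. ZT10 was above ZT22 in 978 of the 1136 genes called higher at ZT6 (86.1%) and below it in 746 of the 878 called lower (85.0%), whereas 48.3% of all genes were above. The ZT10 to ZT22 contrast itself called 246 of the former higher and 9 lower, and 209 of the latter lower and 6 higher, against 3.68% and 4.24% of all genes (7.91% in either direction). The limma variance used the ZT10 and ZT22 libraries too, so genes with close replicates there could be favoured in both contrasts. The shares called from ZT10 to ZT22 can be raised by this selection, so they only describe. By the counts of ZT10 above or below ZT22, the direction was the same in most of these genes. Sizes are not compared over them, since they were called on the ZT2 to ZT6 change. Over all genes tested the median absolute log2 change was 0.24 from ZT2 to ZT6 and 0.19 from ZT22 to ZT10.

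The ZT2 pair was at the extreme of the day more often than the ZT6 pair. Over all 10198 genes tested, the ZT2 pair lay outside the 10 other libraries in 2033 (19.9%) and the ZT6 pair in 935 (9.17%). The gap rule itself makes extreme pairs more frequent among the clear rises and falls. Their counts against the 8 libraries of other times were not made over all genes, so they only describe. Among the 674 clear rises, both ZT2 values lay below all 8 libraries of the other times in 415 (61.6%), and both ZT6 values above them in 185 (27.4%), with 73 genes in both counts and 147 in neither. Among the 491 clear falls, the corresponding counts were 263 (53.6%) and 114 (23.2%), with 47 in both and 161 in neither. In the same direction, 220 of the rises (32.6%) and 190 of the falls (38.7%) were also at least 1.5-fold apart between ZT22 and ZT6. Between ZT2 and ZT10 the counts were 400 (59.3%) and 294 (59.9%). Each of these counts reuses a pair that the rule used, and shares over all genes were not computed. Moxd1 and BC015286 were at least 10 times higher in both ZT2 libraries than in any of the 10 others, and Acot3, Cyp2b9, Cyp2b13, Cfd, A4gnt and 3 entries with no symbol at least 10 times lower.

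A fall within 4 hr limits the half-life of an mRNA. If synthesis stopped at ZT2, first-order decay to the ZT6 level gives the longest half-life that the fall allows, 4 hr divided by the log2 ratio of ZT2 to ZT6, and any synthesis in between makes the true half-life shorter. Of the 491 clear falls, 485 had no value of 0 at ZT6 and could be used. Computed from the lower ZT2 and the higher ZT6 library, the limit was under 1 hr for 12 mRNAs, under 2 hr for 60 and under 4 hr for 181, and the median was 4.55 hr. From the means the counts were 18, 88 and 294, with a median of 3.65 hr. With 1 library left out, the number under 4 hr was 238 without ZT2 replicate 1, 283 without ZT2 replicate 2, 253 without ZT6 replicate 1 and 306 without ZT6 replicate 2. A fall of 1.5-fold, the threshold, corresponds to 6.84 hr.

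These limits hold only if the ZT6 livers had passed through the ZT2 level 4 hr earlier, which different animals cannot show. They also assume that total mRNA per liver did not change, because rpbp is a relative level, and this was not tested. Of the mRNAs with limits under 1, 2 and 4 hr, 5, 40 and 103 were also at least 1.5-fold higher in both ZT22 libraries than in both ZT6 libraries. Arntl was in this group, with a limit of 1.04 hr from the means and 1.17 hr from the least favourable pair, and a limit of 1.51 hr from the 95% interval of the limma change. Interval limits, here and below, are on log2(rpbp + 1), while the other limits use rpbp itself. The added 1 by itself lengthens interval limits of mRNAs that were low at ZT6. Npas2 had 0.94 and 1.25 hr, but 4.59 hr from that interval. Part of this difference is due to the scale, since its 19.1-fold fall of means was a log2 change of -2.01 there. Nfil3 had 2.80 and 3.21 hr, and 3.75 hr from the interval. Clock had 3.51 and 4.10 hr, and 4.53 hr from the interval. The data thus bound Nfil3 and Clock less tightly than Arntl.

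Among other mRNAs at least 1.5-fold above ZT6 in both ZT22 libraries, Scara5 had limits of 37.5 and 38.1 min, Serpina9, a serpin, 44.0 and 46.8 min, and Slc34a2, a phosphate carrier, 51.1 and 58.0 min. Serpina9 and Slc34a2 were low, with ZT2 means of 9.64 and 5.18 rpbp, and their calls did not hold (adjusted p up to 0.106 and 0.0612 with 1 library left out). From the 95% interval of the change the limit was 1.07 hr for Scara5, 2.84 hr for Serpina9 and 3.19 hr for Slc34a2. Selenbp2 had 31.3 and 35.1 min and 0.941 hr from the interval, but its ZT22 values were uneven, at 21.9 and 1179 rpbp. Serpina4-ps1 had 50.8 and 53.7 min, and 0.986 hr from the interval. Egfr had 1.2 and 1.24 hr, Cyp7b1 1.12 and 1.26 hr, Elovl3 1.27 and 1.42 hr and Avpr1a 1.52 and 1.71 hr. From the interval these were 1.99 hr for Egfr, 1.72 hr for Cyp7b1, 2.22 hr for Elovl3 and 2.07 hr for Avpr1a. Mup1, at 18144 rpbp at ZT2, had 1.01 and 1.21 hr, and 1.96 hr from the interval of its change. A ZT22 level 1.5-fold above ZT6 does not mean that the ZT2 level was reached at ZT22. Scara5 (7.64 and 31.5 rpbp at ZT22), Serpina9 (1.72 and 2.16) and Serpina4-ps1 (56.0 and 85.8) were there below both of their ZT2 values. So were Selenbp2, Egfr, Cyp7b1 and Mup1, whereas Slc34a2 and Elovl3 were above both of theirs and Avpr1a overlapped.

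The shortest limit of all belonged to Moxd1, which, like Saa1, Saa2 and Lcn2, was not 1.5-fold above ZT6 in both ZT22 libraries. Moxd1 had 20.8 and 22.02 min, Saa2 31.9 and 34.3 min, Saa1 34.1 and 37.3 min and Lcn2 45.3 and 49.2 min. From the interval the limits were 0.591, 0.957, 0.951 and 1.66 hr. Saa1, Saa2 and Lcn2 were more than 10-fold above their higher ZT6 value in the ZT2 livers and ZT22 replicate 2 alone, and Moxd1 in the ZT2 livers alone, so no time other than ZT2 had a high level in both libraries. The plasma protein mRNAs had longer limits, 1.86 and 2.11 hr for Hp, 2.32 and 2.36 hr for Fga, 2.45 and 2.49 hr for Fgb and 2.38 and 2.42 hr for Fgg, and Fga and Fgg were at least 1.5-fold above ZT6 in both ZT22 libraries. From the interval these were 2.94 hr for Hp, 3.15 hr for Fga, 3.56 hr for Fgb and 3.24 hr for Fgg. Pcdhb11 read 93.9 and 91.4 rpbp at ZT2 and 0.24 and 0.20 at ZT6, which would give 28.0 min, but limma did not call it (adjusted p = 0.075).

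**Figure D5:**
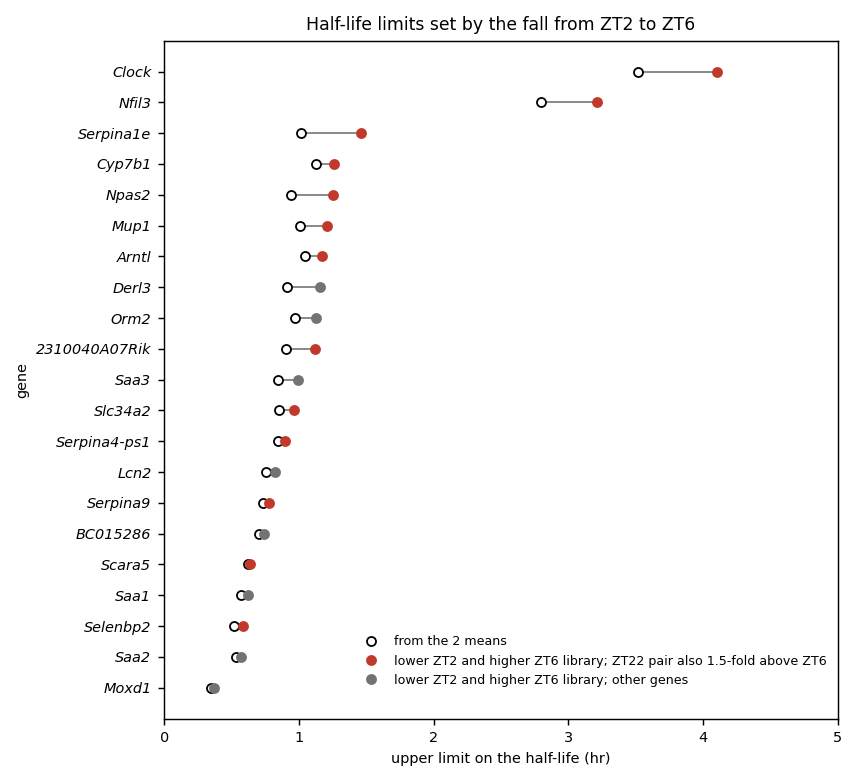
Upper limits on the half-life (horizontal, hours) of 21 mRNAs (vertical) that fell from ZT2 to ZT6. Open circles are from the 2 means and filled circles from the lower ZT2 and higher ZT6 library, red where both ZT22 libraries were at least 1.5-fold above both ZT6 libraries and grey elsewhere. Moxd1 has the shortest limit and Clock the longest of those shown.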

How the data were processed

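Liver poly(A) RNA of 12 mice was sequenced with the TruSeq kit on pooled barcoded libraries. The authors used CASAVA 1.8 and TopHat (mm9), kept sequences mapping to 1 place and deposited the signal as mean exon coverage per gene, scaled to 1e+07 uniquely mapped sequences; strand was not used. Deposited values were multiplied by 4. Columns of rhythm statistics by the authors were not used. Columns named ZT20 were read as ZT22, the label of those samples. Read counts per gene are not part of the signal, so depth enters only through this scaling, and no counting interval was computed.

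Genes above 8 rpbp in 1 or more libraries were tested with limma 3.58.1 (R 4.3.3) on log2(rpbp + 1), 1 mean per time over 12 libraries, intensity trend, contrast ZT6 minus ZT2, two-sided, Benjamini-Hochberg, called at adjusted p below 0.05. A fold change on this scale understates the change of low genes; folds in the text are ratios of mean rpbp. The gap rule and half-life limits carry no test. Named genes were the 14 largest rises and 14 largest falls by limma among called clear rises and falls with no value of 0, the clock list, and called list members; other genes named were chosen after their values were seen. Members and lists were chosen with earlier results of these data known. The fit was first tested on simulated data. Gene positions are from GENCODE vM1 (mm9). Alternatives were the pseudocount, the minimum level, size factors, a replicate block, fewer libraries and no trend. Python 3.11.15 with pandas 2.3.3 and matplotlib 3.10.9 made tables and plots. Some genes are not reported here.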

Additional observations from a re-analysis of the deposited data

How the results depend on the processing

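The numbers of genes called by limma stayed within 1.5 times the reported 1136 and 878 under every alternative that kept all ZT2 and ZT6 libraries, at 966 to 1331 higher and 758 to 1044 lower, including 1144 and 892 without ZT22 replicate 2, an alternative chosen after seeing the data. Leaving out 1 ZT2 or ZT6 library gave 483 to 563 higher and 303 to 400 lower; these fits have fewer samples. With these libraries left out there were 816 to 901 clear rises, 637 to 822 clear falls and 238 to 306 half-life limits under 4 hr; a gap over fewer values is easier to reach. With no minimum level there were 1418 clear rises, 1046 clear falls and 310 limits under 4 hr, because more genes enter. Of 164 named genes, all kept their direction in the 4 fits without a library, 76 kept their side of the threshold in all 4, and 128 did so in every other alternative; with no minimum 33 calls were lost, Alb among them.

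With the replicate number as a block, 1070 genes were higher and 823 lower, and 8 of the 164 named genes lost their call. The numbers do not pair the samples: correlations of same-numbered deviations ran from -0.153 to 0.206 over 15 pairs of times (median -0.03).

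Each time has 2 libraries and the read counts behind a value are not known, so the precision of low genes rests on the spread between replicates alone.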

Other observations

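Pcdhb11, a protocadherin, was present in 4 of 12 libraries only, at 93.9 and 91.4 rpbp in the ZT2 pair, 148 rpbp in ZT18 replicate 2 and 101 rpbp in ZT22 replicate 2, and at most 0.76 rpbp in the 8 others. Prtn3, a neutrophil protease, read 9.56 and 7.72 rpbp at ZT2 and 18.3 in ZT22 replicate 2, and at most 0.92 in the 9 others. Ear11, an eosinophil ribonuclease, read 32.4 and 21.4 rpbp at ZT2, 29.4 and 21.6 at ZT22, and was listed at 0 in the ZT6 and ZT18 libraries.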
